A study of Homo sapiens with 20 samples.

Results

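The epidermal growth factor (EGF) family ligands and their ERBB receptors were followed in RNA-seq data of irradiated and NFKBIA-depleted U2-OS cells. The 9 genes are the ligands EREG, AREG, HBEGF, TGFA, BTC and NRG1 and the receptors EGFR, ERBB2 and ERBB3, each taken from the count table by its gene symbol, with 1 entry per symbol among 20314 genes. EGF-like ligands are made as membrane proteins, and metalloproteases of the ADAM family cut them free so that they can reach receptors on the same or neighbouring cells. EGFR binds EREG, AREG, HBEGF, TGFA and BTC, ERBB3 binds NRG1 and has only weak kinase activity of its own, and ERBB2 has no known ligand and signals as a partner of the others. Paired receptors feed the RAS-ERK and PI3K pathways, and several of the ligands are known among the factors that senescent cells release.

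U2-OS is a human osteosarcoma cell line, grown here in DMEM with 10% fetal calf serum. The 20 libraries comprised 4 groups of 5: untreated cells, cells harvested 1.5 h (90 minutes) or 7 days after ionizing radiation (IR) with 20 Gy, and cells without irradiation that carried an shRNA against NFKBIA, the gene of the NF-κB inhibitor IκBα. The study compared an early and a late response to DNA damage with the loss of IκBα alone. The study's methods describe lentiviral shRNA vectors, doxycycline induction and scrambled shRNA controls, and cells selected as clones with puromycin, but neither a vector nor doxycycline is named in the labels of untreated samples. Effects of the vector, of doxycycline and of selection therefore cannot be told apart from that of the knockdown. The study calls the libraries of untreated and irradiated cells biological replicates, while its methods speak of replicate RNA samples. Neither wording, nor the labels, says whether they were separate cultures, and the p values measure the spread between these libraries.

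Library totals were between 22535659 and 40390961 counts. NFKBIA itself, the check of the knockdown, was at 31.3 ± 7.25 CPM in untreated cells and at 12.1 ± 0.667 CPM in the knockdown (CPM are read counts scaled to depth with TMM factors, mean ± SD, n = 5), and every knockdown library lay below every untreated one. The untreated library 5 stood apart, with Pearson correlations of 0.970 to 0.981 across genes with the other untreated libraries, the lowest total, and a place on lane 3 with 3 of the 1.5 h libraries, whereas the other untreated libraries filled lane 2. Lanes 4 and 5 held the 7 days libraries together with 2 libraries of 1.5 h and with 1 of the knockdown, and the other 4 knockdown libraries filled lane 6. Of 9 osteoblast lineage markers 7 had enough counts to be tested, with COL1A1 at 1974 CPM, SPARC at 2137 CPM and RUNX2 at 116 CPM in untreated cells, while COL1A2 was at 0.411 CPM and SP7 and IBSP had no more than 3 counts in any library. The sum of the osteoblast markers was 4005 to 4751 CPM in untreated libraries, 3677 to 3986 CPM at 1.5 h, 2756 to 3179 CPM at 7 days and 2804 to 2970 CPM with the knockdown. COL1A1 and SPARC carried most of this sum, and it does not describe each marker, since at 7 days SPP1 had a mean of 74.3 CPM beside 12.0 CPM in untreated cells and ALPL one of 45.4 CPM beside 26.9 CPM. All 7 epithelial markers could be tested, with sums of 648 to 1129, 760 to 924, 667 to 698 and 661 to 731 CPM in the same order, carried mostly by KRT8 and KRT18. The sum does not describe each of them, as KRT14 had means of 4.82, 4.12, 0.735 and 0.491 CPM, CDH1 had 0.440 CPM with the knockdown beside 1.83 CPM untreated, and CLDN4 had 27.0 CPM there beside 13.0 CPM in untreated cells. The 5 leukocyte markers summed to no more than 2.24 CPM and the 2 endothelial markers in the table to no more than 2.01 CPM in any library.

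EREG, AREG and BTC, which encode epiregulin, amphiregulin and betacellulin, lie near each other on chromosome 4, and HBEGF, which encodes heparin-binding EGF-like growth factor, lies on chromosome 5. The 250 bases before the RefSeq start site of these ligands (GRCh38.p14) are shown because the neighbours EREG, AREG and BTC had their highest mean at 7 days and HBEGF at 1.5 h. Capitals mark matches to the letters searched on both strands, which were an AP-1 site (TGANTCA), a cAMP response element (TGACGTCA), a TATA box (TATAAA), and the κB and CArG motifs.
EREG, chr4:74364895-74365144, plus strand: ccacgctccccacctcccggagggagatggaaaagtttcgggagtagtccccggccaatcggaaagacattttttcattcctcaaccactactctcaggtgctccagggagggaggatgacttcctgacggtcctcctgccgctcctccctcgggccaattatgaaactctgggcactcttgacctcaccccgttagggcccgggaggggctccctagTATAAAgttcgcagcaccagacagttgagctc
AREG, chr4:74444886-74445135, plus strand: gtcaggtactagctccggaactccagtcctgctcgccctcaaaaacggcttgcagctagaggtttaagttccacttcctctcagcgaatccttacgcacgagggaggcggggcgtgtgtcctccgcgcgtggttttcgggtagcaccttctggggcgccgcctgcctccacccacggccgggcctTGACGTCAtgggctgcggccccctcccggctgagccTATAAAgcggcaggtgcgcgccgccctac
BTC, chr4:74794524-74794773, minus strand: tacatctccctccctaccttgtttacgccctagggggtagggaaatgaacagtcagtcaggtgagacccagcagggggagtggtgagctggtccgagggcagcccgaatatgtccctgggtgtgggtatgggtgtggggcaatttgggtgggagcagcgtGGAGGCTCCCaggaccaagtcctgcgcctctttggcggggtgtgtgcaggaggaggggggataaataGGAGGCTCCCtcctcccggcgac
HBEGF, chr5:140346604-140346853, minus strand: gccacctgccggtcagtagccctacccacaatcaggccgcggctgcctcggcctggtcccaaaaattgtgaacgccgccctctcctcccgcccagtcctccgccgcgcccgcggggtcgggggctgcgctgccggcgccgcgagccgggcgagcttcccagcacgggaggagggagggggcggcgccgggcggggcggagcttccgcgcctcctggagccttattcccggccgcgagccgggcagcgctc

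The TATA box letters began 32 bases before the start of EREG and 29 bases before that of AREG, and 10.7% of all 35116 promoter windows of this length held them. AREG also held the cAMP response element 65 bases before its start, which 1.65% of the windows held. BTC held the letters of the κB motif at 90 and again at 23 bases, on the reverse strand, beside 9.96% of all windows. HBEGF held none of the motifs. Among 9 start sites listed for 7 of the genes, a κB match was also found for TGFA, and an AP-1 match for ERBB2, beside 6.57% of all windows for AP-1. An internal start of EGFR held 2 AP-1 matches and the TATA box letters at 146 and 36 bases before it. The CArG motif, held by 1.16% of windows, matched none. A match of letters describes the sequence and was not tested for binding.

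Per kilobase of gene length, ERBB2 and HBEGF were the most abundant of the 9 genes in untreated cells, at 8.13 ± 0.109 and 9.50 ± 0.908 CPM per kb (mean ± SD, n = 5). TGFA, which encodes transforming growth factor α, followed at 4.74 ± 0.711 and EGFR at 2.17 ± 0.567 CPM per kb. NRG1 (neuregulin 1) and EREG stood at 0.696 ± 0.199 and 0.610 ± 0.136 CPM per kb. ERBB3, BTC and AREG had the lowest values, at 0.176 ± 0.0331, 0.153 ± 0.0226 and 0.0375 ± 0.0317 CPM per kb. AREG has a near-identical second copy, and how reads that match both were counted is not known, so its rank is uncertain. At 7 days the order had changed, with NRG1 at 3.55 ± 0.478 CPM per kb beside EGFR at 3.66 ± 0.107, and ERBB3 at 0.0405 ± 0.0112 CPM per kb as the lowest of the 9. Of the relatives outside the 9 genes, the neuregulin NRG3 was at 3.70 ± 1.54 CPM per kb and EGF at 0.584 ± 0.115 CPM per kb in untreated cells, while the receptor ERBB4 was at 0.0152 ± 0.00637 CPM per kb. These levels depend on the gene length given in the count table, and counts do not show which isoforms were made.

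**Figure D1:**
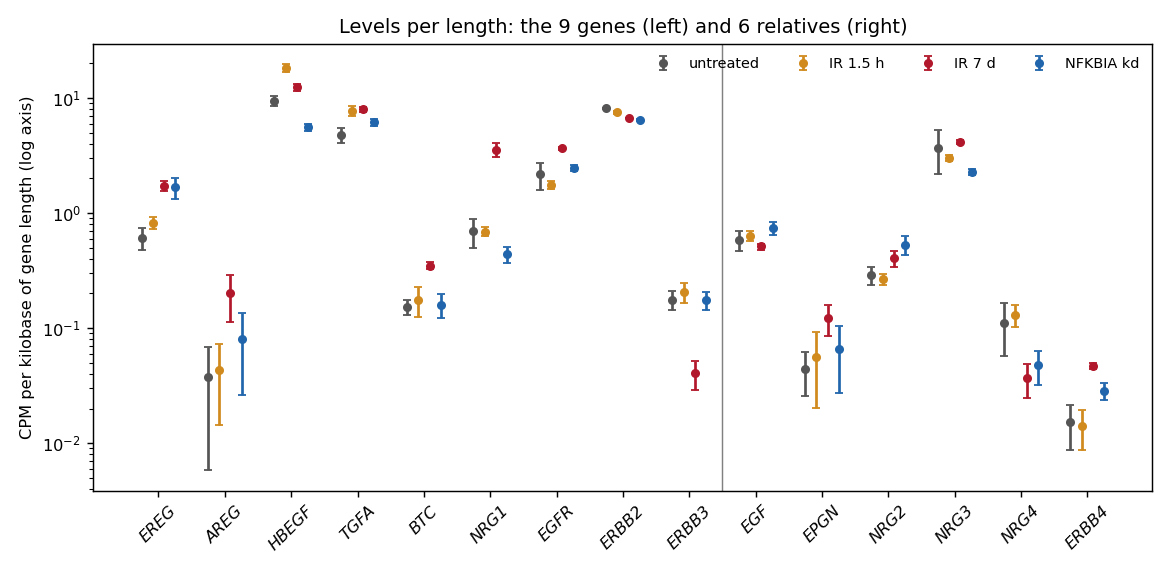
Mean level of each gene in CPM per kilobase of gene length on a log axis, with SD over the 5 libraries of each of the 4 groups. HBEGF, ERBB2 and TGFA lie above 4 CPM per kb in every group, and NRG1 rises to 3.55 and ERBB3 drops to 0.0405 CPM per kb at 7 days.

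Against untreated cells, 2 of the 8 genes that could be tested were called at 1.5 h, 6 at 7 days and 3 in the knockdown. To be called, a gene needed an absolute log2 fold change over 0.5 and an adjusted p below 0.05 (Benjamini-Hochberg over 14992 genes) in edgeR's quasi-likelihood test. HBEGF and TGFA rose at 1.5 h, where 3.66% of all genes tested were called, 2.08% higher and 1.57% lower. EREG, TGFA, BTC, NRG1 and EGFR rose and ERBB3 fell at 7 days, where 31.1% of all genes were called, 16.7% higher and 14.4% lower. EREG rose and HBEGF and NRG1 fell with the knockdown, where 12.7% of all genes were called, 5.18% higher and 7.53% lower. Treated and untreated libraries were fully separated for 3, 8 and 4 of the 8 genes in this order, beside 12.3%, 44.8% and 24.1% of all genes tested. The median log2 fold change of the 8 genes was 0.22, 0.75 and 0.03 in this order, beside −0.03, 0.01 and −0.01 over all genes tested. As the genes were chosen with earlier results of these data known, these counts and medians are a description. Without the untreated library 5 the numbers called were 2, 6 and 2, with NRG1 lost in the knockdown, beside 3.28%, 30.3% and 11.9% of all genes. AREG had too few counts for the test. In bulk RNA, fewer cells with a transcript and less of it per cell cannot be told apart.

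**Figure D2:**
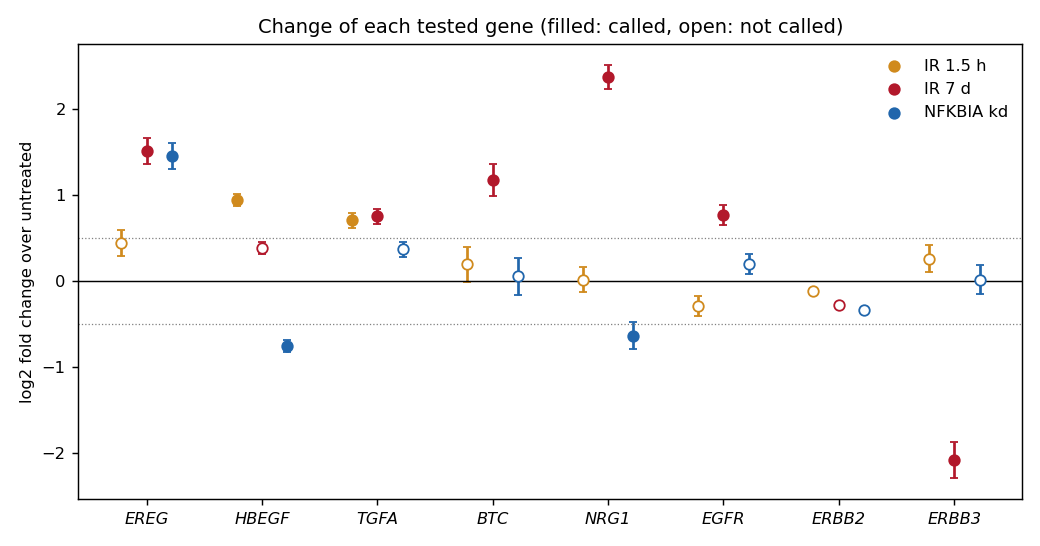
Log2 fold change over untreated cells of the 8 tested genes at 1.5 h and 7 days after IR and with the NFKBIA knockdown (kd), with SE, where filled points were called, open points were not, and dotted lines mark a change of 0.5. NRG1 at 7 days is the highest at 2.37 and ERBB3 at 7 days the lowest at −2.08.

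EREG encodes epiregulin, a ligand of EGFR and ERBB4. It was at 3.30, 4.65, 3.15, 2.57 and 3.76 CPM in the untreated libraries and at 4.27, 4.81, 5.65, 4.28 and 4.62 CPM at 1.5 h. At 7 days its values were 8.95, 10.1, 10.6, 11.1 and 8.77 CPM, and with the knockdown they were 6.80, 9.19, 8.76, 12.1 and 11 CPM. All libraries of 7 days and of the knockdown lay above all untreated and 1.5 h libraries, and the untreated and 1.5 h libraries overlapped each other. The log2 fold change over untreated was 1.5 ± 0.15 (SE) at 7 days, a 2.84-fold higher level with an adjusted p of 2.01e-08, and 1.45 ± 0.15 with the knockdown, with an adjusted p of 1.70e-07 (edgeR quasi-likelihood test, Benjamini-Hochberg). At 1.5 h it was 0.44 ± 0.16 with an adjusted p of 0.0491 by the same test, under the threshold on the fold change, and it reached 0.58 and was called when the untreated library 2 was left out. Between 7 days and the knockdown EREG did not pass the test, with a difference of 0.05 and a 95% confidence interval of −0.22 to 0.32 on the log2 scale. In a fit with the sequencing lane as a factor the knockdown value was 0.90 and no longer called (adjusted p = 0.112, edgeR), whereas that at 7 days was 1.48 and called, and within lane 5, where 3 libraries of 7 days met 1 of the knockdown, EREG was higher at 7 days by 0.58.

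AREG encodes amphiregulin, an EGFR ligand. Its raw counts never exceeded 14 in a library, and its levels were 0.0297, 0.138, 0.0751, 0.0659 and 0 CPM in untreated cells and 0.127, 0.0288, 0.0281, 0.117 and 0.0566 CPM at 1.5 h. At 7 days they were 0.176, 0.394, 0.404, 0.183 and 0.501 CPM, and with the knockdown 0.118, 0.121, 0.239, 0.183 and 0 CPM. Every 7 days library lay above every untreated and 1.5 h library, and the knockdown overlapped all other groups. Without the filter on low counts, the log2 fold change over untreated was 2.17 at 7 days (adjusted p = 0.00137) and 0.92 with the knockdown (adjusted p = 0.299, edgeR quasi-likelihood test). An exact permutation test of log2 CPM (two-sided, 5 against 5 libraries) gave p = 0.00794 at 7 days, the smallest it can give, and p = 0.278 for the knockdown. A near-identical second copy of AREG, listed without a symbol, had 6 counts in all libraries together beside 97 for AREG. Reads that match both could have been split between these copies or left uncounted, as the counter is not given.

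HBEGF encodes the heparin-binding ligand of EGFR and ERBB4. It was at 28.9, 25.9, 28.9, 33.0 and 26.7 CPM in untreated libraries and at 61.4, 53.5, 49.9, 55.2 and 55.4 CPM at 1.5 h. At 7 days it was at 38.0, 37.7, 33.9, 36.3 and 40.8 CPM, and with the knockdown at 18.0, 18.3, 16.3, 15.8 and 16.1 CPM. The 4 groups did not overlap, and their order from low to high was knockdown, untreated, 7 days and 1.5 h. The rise at 1.5 h was 0.94 ± 0.07 on the log2 scale, 1.92-fold, with an adjusted p of 2.92e-09 (edgeR). At 7 days the value of 0.38 ± 0.07 passed on p (adjusted p = 6.46e-05, edgeR) but not on fold change. The knockdown was lower by −0.76 ± 0.07 on the log2 scale (adjusted p = 4.18e-08, edgeR), and this became −0.54 and was not called with lane as a factor (adjusted p = 0.0625, edgeR).

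TGFA encodes transforming growth factor α, an EGFR ligand. It was at 24.4, 29, 23.0, 21.1 and 20.0 CPM in untreated libraries, at 34.9, 35.7, 44.5, 39.6 and 36.9 CPM at 1.5 h and at 42.3, 40.8, 39.4, 37.1 and 38.3 CPM at 7 days. With the knockdown it was at 28.4, 29.5, 28.9, 34.2 and 31.1 CPM. All irradiated libraries lay above all others, the early and late ones overlapped, and the knockdown overlapped the untreated group at 1 untreated library, that of 29 CPM. The log2 fold change over untreated was 0.70 ± 0.09 at 1.5 h (adjusted p = 5.20e-06) and 0.75 ± 0.09 at 7 days (adjusted p = 1.78e-07, edgeR). Between these times TGFA differed by 0.05 (95% confidence interval −0.12 to 0.21). The knockdown value of 0.37 ± 0.09 passed on p (adjusted p = 0.00196, edgeR) but not on fold change, and it was 0.63 with an adjusted p of 0.0599 with lane as a factor.

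BTC encodes betacellulin, a ligand of EGFR and ERBB4. With 9 to 35 counts per library it was at 0.505, 0.443, 0.450, 0.330 and 0.428 CPM in untreated cells and at 0.559, 0.288, 0.562, 0.410 and 0.651 CPM at 1.5 h. It was at 0.878, 0.953, 1.01, 1.07 and 1.0 CPM at 7 days and at 0.471, 0.485, 0.329, 0.367 and 0.602 CPM with the knockdown. The 7 days libraries lay above all others, and the other groups overlapped each other. The log2 fold change at 7 days was 1.17 ± 0.18, 2.25-fold, with an adjusted p of 1.17e-05 (edgeR). It was 0.19 ± 0.20 at 1.5 h and 0.05 ± 0.21 with the knockdown, neither of which passed the test. The 95% confidence intervals were −0.21 to 0.59 and −0.37 to 0.47. With lane as a factor the 7 days value was 0.92 and lost its call (adjusted p = 0.176, edgeR).

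NRG1 encodes neuregulin 1, a ligand of ERBB3 and ERBB4. It was at 4.31, 4.51, 5.40, 4.48 and 7.94 CPM in untreated libraries and at 6.0, 5.25, 4.72, 5.39 and 5.01 CPM at 1.5 h. At 7 days it was at 27.3, 29.8, 21.1, 27.3 and 30.4 CPM, and with the knockdown at 3.18, 3.64, 4.10, 2.82 and 3.01 CPM. Its 7 days libraries were far above all others, its knockdown libraries below all others, and its untreated and 1.5 h libraries overlapped. The rise at 7 days was 2.37 ± 0.14 on the log2 scale, 5.18-fold (adjusted p = 4.38e-12, edgeR), and was 1.88 with lane as a factor. The knockdown was lower by −0.64 ± 0.15 (adjusted p = 0.00236, edgeR). The untreated library 5 was the highest untreated one, and without it the knockdown value was −0.48, below the threshold on the fold change, while with lane as a factor it was −1.16. At 1.5 h the value of 0.01 ± 0.15 was not called, and it became −0.57 and called lower with lane as a factor (adjusted p = 0.0376, edgeR), a fit in which the 1.5 h and untreated libraries meet through the untreated library 5 alone.

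**Figure D3:**
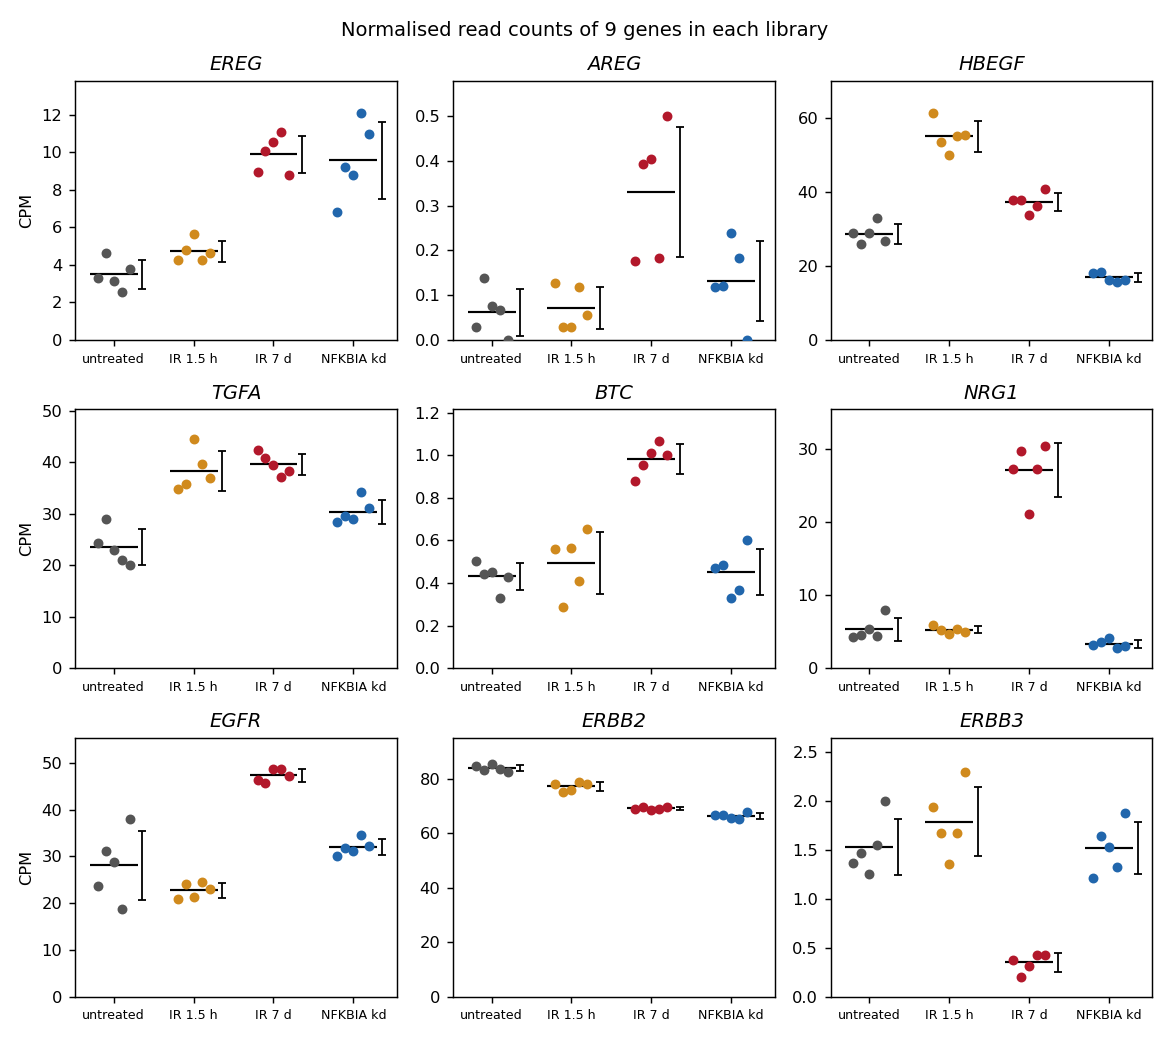
CPM of the 9 genes in each library (points), with the mean of each group (line) and the SD (bar at its right, n = 5), on axes that start at 0. NRG1 is at 21.1 to 30.4 CPM in the 7 days libraries and at no more than 7.94 CPM elsewhere, ERBB3 is at no more than 0.430 CPM in the 7 days libraries, and the untreated libraries spread widely for EGFR, from 18.7 to 38.0 CPM.

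EGFR encodes the receptor of most of these ligands. It was at 23.7, 31.2, 28.9, 18.7 and 38.0 CPM in untreated libraries and at 20.9, 24.1, 21.3, 24.5 and 23.0 CPM at 1.5 h. It was at 46.3, 45.8, 48.8, 48.8 and 47.3 CPM at 7 days and at 30.1, 31.8, 31.1, 34.6 and 32.3 CPM with the knockdown. The 7 days libraries lay above all others, and the untreated group overlapped with both the 1.5 h group and the knockdown. The log2 fold change over untreated was 0.76 ± 0.12 at 7 days, 1.69-fold (adjusted p = 8.56e-06), −0.30 ± 0.12 at 1.5 h (adjusted p = 0.0767) and 0.19 ± 0.12 with the knockdown (adjusted p = 0.202, edgeR). The untreated library 5 was the highest of its group, and without it the 7 days value was 0.88. With lane as a factor, where that library alone joins the untreated group to the irradiated ones, the 7 days value was 0.17 and not called (adjusted p = 0.552, edgeR) and that at 1.5 h was −0.78 and called lower (adjusted p = 0.00123, edgeR), and the comparison of 7 days with 1.5 h, which share lane 4, gave 1.06 in the fit without lane and 0.94 within that lane.

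ERBB2 encodes the receptor without a known ligand. It was at 84.7, 83.2, 85.4, 83.6 and 82.6 CPM in untreated libraries and at 78.0, 75.3, 75.8, 78.9 and 78.1 CPM at 1.5 h. It was at 68.9, 69.8, 68.4, 68.8 and 69.6 CPM at 7 days and at 66.7, 66.6, 65.6, 65.4 and 67.9 CPM with the knockdown. The 4 groups did not overlap, with the untreated libraries at the top and the knockdown at the bottom, yet no difference reached the threshold on the fold change. The log2 fold changes over untreated were −0.12 ± 0.03, −0.28 ± 0.03 and −0.34 ± 0.03 at 1.5 h, at 7 days and with the knockdown, with adjusted p of 0.0119, 1.89e-07 and 6.14e-08 (edgeR). Between 7 days and the knockdown the difference of 0.06 did not pass on p (adjusted p = 0.144, edgeR). ERBB2 lies on chromosome 17 (39687914 to 39730426, GRCh38, GENCODE 29) and overlaps MIEN1 and PGAP3 on the other strand, and although the libraries were stranded, the strand setting used in counting is not given in the sources used here, so it is not known whether reads of these genes were kept apart.

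ERBB3 encodes the neuregulin receptor. In the annotation it overlaps the gene AC034102.2, which is in the count table, on the same strand, so that reads of both could be divided in ways the counts do not show. With 6 to 81 counts per library it was at 1.37, 1.47, 1.25, 1.55 and 2.0 CPM in untreated libraries and at 1.93, 1.67, 1.35, 1.67 and 2.29 CPM at 1.5 h. It was at 0.380, 0.197, 0.317, 0.426 and 0.430 CPM at 7 days and at 1.21, 1.64, 1.52, 1.32 and 1.88 CPM with the knockdown. All 7 days libraries lay below all others, and the other groups overlapped each other. The log2 fold change at 7 days was −2.08 ± 0.21, with an adjusted p of 2.65e-08 (edgeR), and it was −3.01 with lane as a factor. At 1.5 h it was 0.25 ± 0.16 (95% confidence interval −0.06 to 0.57) and with the knockdown 0.01 ± 0.16 (−0.31 to 0.34), and neither passed the test. With lane as a factor these became −0.27 and −1.38, not called (adjusted p = 0.444 and 0.0595, edgeR).

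The order of the groups differed between the genes. EREG, TGFA, BTC, NRG1 and EGFR had their highest mean at 7 days, as did AREG, whereas HBEGF and ERBB3 were highest at 1.5 h and ERBB2 in untreated cells. For EREG the top neighbours, 7 days and the knockdown, did not differ beyond their spread, and for TGFA this held for 7 days and 1.5 h. For BTC the 3 groups below 7 days, for NRG1 untreated and 1.5 h cells, and for ERBB3 the 3 groups above 7 days did not pass the test against their neighbours in the order. EGFR did not pass between 1.5 h and untreated nor between untreated and knockdown cells.

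Set directly against 1.5 h, 6 of the 8 genes were called at 7 days, where 29.3% of all genes were called, 16.8% higher and 12.6% lower. The libraries did not overlap for 7 of the 8 genes, beside 61.8% of all genes. EREG, BTC, NRG1 and EGFR were higher at 7 days by 1.07 ± 0.14, 0.98 ± 0.18, 2.36 ± 0.14 and 1.06 ± 0.12 on the log2 scale, and HBEGF and ERBB3 were lower by −0.56 ± 0.07 and −2.34 ± 0.20. The largest adjusted p among these 6 was 5.87e-05, for BTC (edgeR). TGFA did not pass. Within lane 4, where 2 libraries of each time met, the log2 values of these 6 genes in the same order were 1.08, 0.76, 2.44, 0.94, −0.56 and −2.75.

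Against the knockdown, 5 of the 8 genes were called at 7 days, where 25.7% of all genes were called, 15.8% higher and 9.89% lower. The libraries did not overlap for 7 of the 8 genes, beside 60.7% of all genes. HBEGF, BTC, NRG1 and EGFR were higher at 7 days than with the knockdown by 1.14 ± 0.07, 1.12 ± 0.18, 3.01 ± 0.15 and 0.57 ± 0.12 on the log2 scale, and ERBB3 was lower by −2.10 ± 0.21, with adjusted p no larger than 2.73e-04 (edgeR). NRG1 was thus at an 8.06-fold higher level at 7 days than with the knockdown. TGFA passed on p alone, with 0.38 ± 0.09. In the comparison of the knockdown with 1.5 h, where 14.1% of all genes were called, 6.54% higher and 7.6% lower, 3 genes were called and 6 of 8 did not overlap, beside 43.6% of all genes. EREG was higher by 1.01 ± 0.14, and HBEGF and NRG1 were lower by −1.70 ± 0.07 and −0.65 ± 0.15. Those of EREG and NRG1 were lost with lane as a factor, at 0.51 and −0.59 (adjusted p = 0.317 and 0.202, edgeR), and EGFR, at 0.49 ± 0.12, passed on p and crossed the fold threshold, at 0.51, 0.51 and 0.50, without library 2 or library 4 of 1.5 h or library 1 of the knockdown. These comparisons and those with untreated cells share libraries and are not independent of each other.

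On chromosome 4 the annotation (GENCODE 29, GRCh38) places MTHFD2L, EPGN, EREG, AREG, BTC and PARM1 in this order. EREG spans 74365143 to 74388751 and AREG 74445134 to 74455009 on the plus strand, 56.4 kb apart, and BTC spans 74744759 to 74794686 on the minus strand, 289.7 kb beyond AREG. EPGN, which encodes the EGFR ligand epigen, lies 49.8 kb before EREG and had no more than 11 counts in a library, too few for the test, with mean levels of 0.0798, 0.102, 0.223 and 0.119 CPM in untreated, 1.5 h, 7 days and knockdown cells. MTHFD2L, a mitochondrial folate enzyme gene at the start of the cluster, was at 16.2, 19.3, 21.4 and 23.7 CPM in the same order and was called higher with the knockdown alone, by 0.55 ± 0.06 (adjusted p = 2.17e-07, edgeR). PARM1, at its end, was at 14.9, 12.2, 15.0 and 8.16 CPM and was called lower with the knockdown, by −0.85 ± 0.17 (adjusted p = 4.22e-04, edgeR), which became −0.56 without the untreated library 5, still called. Of the 4 genes of this stretch that could be tested, EREG and BTC alone were called at 7 days, where 31.1% of all genes tested were. With the knockdown, where 12.7% of all genes were called, EREG was called and BTC was not.

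**Figure D4:**
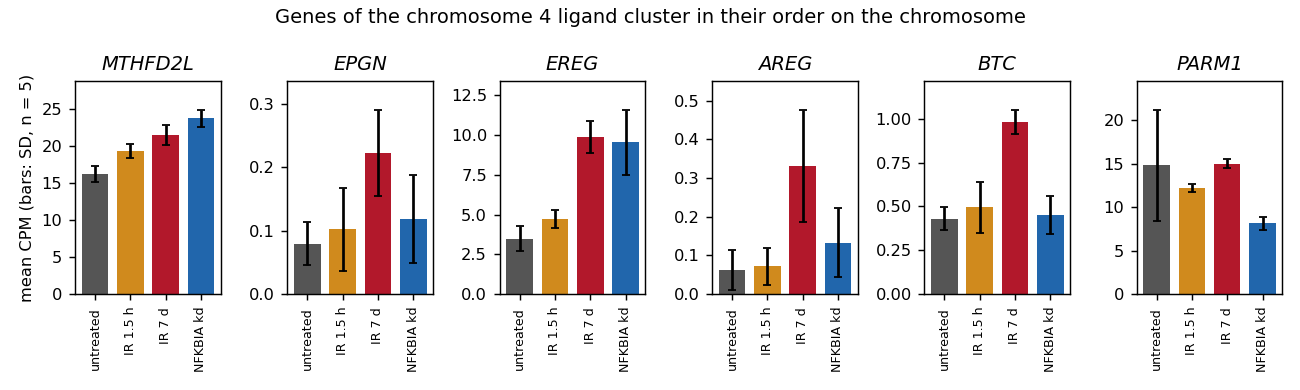
Mean CPM (bars, SD, n = 5) of the 6 genes of the chromosome 4 cluster in their order on the chromosome, with axes of different height that start at 0. EPGN, AREG and BTC are highest at 7 days at low levels, EREG is high at 7 days and with the knockdown at 9.88 and 9.56 CPM, and PARM1 is lowest with the knockdown at 8.16 CPM.

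Of 6 further relatives of the family, 5 could be tested. ERBB4, the receptor of neuregulins, EREG, HBEGF and BTC, was at 0.197, 0.183, 0.613 and 0.372 CPM in untreated, 1.5 h, 7 days and knockdown cells, and was called higher at 7 days by 1.57 ± 0.24 (adjusted p = 7.16e-06) and with the knockdown by 0.86 ± 0.26 (adjusted p = 0.0165, edgeR). Its counts were 4 to 13 per untreated library, and it passed the filter on low counts through the libraries of 7 days and the knockdown, of which 5 and 4 reached the 0.296 CPM needed, beside 1 of the untreated and 0 of the 1.5 h libraries. NRG4 was called lower at 7 days by −1.48 ± 0.31 and with the knockdown by −1.14 ± 0.30, and passed the filter through the untreated and 1.5 h libraries, with 3 to 9 counts at 7 days. As each passed through the groups where it was high, its calls are a description. NRG2 was called higher with the knockdown by 0.84 ± 0.15, and NRG3 lower by −0.68 ± 0.16. Thus 2 of 5 were called at 7 days, 4 of 5 with the knockdown and 0 of 5 at 1.5 h by edgeR, where 0 of 5 had an unadjusted p under 0.05 and DESeq2 called 0. Of all genes tested 31.1%, 12.7% and 3.66% were called in this order. Without the untreated library 5 the counts were 2, 3 and 1, since NRG3 was then at −0.41 with the knockdown, short of the threshold of 0.5, and NRG4 at 0.55 at 1.5 h. Without the untreated library 1 ERBB4 was at 0.71 with the knockdown and not called (adjusted p = 0.0637, edgeR). NRG2 at 7 days was at 0.46 and not called with all libraries. It was called higher, at 0.50 to 0.51, without the untreated library 3 or without library 2 or 5 of 7 days. EGF was at 3.58, 3.86, 3.14 and 4.53 CPM and was not called against untreated cells.

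Of 14 genes that shed or traffic the ligands, 6 were called at 7 days, 4 with the knockdown and 0 at 1.5 h by edgeR. These were 42.9%, 28.6% and 0% of the list, beside 31.1%, 12.7% and 3.66% of all genes tested. At 1.5 h 4 of them had an unadjusted p under 0.05, and DESeq2 called 0. ADAM12 and ADAM15, metalloproteases, rose at 7 days by 1.37 ± 0.13 and 1.19 ± 0.06, as did RHBDL2, a membrane protease, by 0.75 ± 0.28, and CD9, a tetraspanin that associates with the HBEGF precursor, fell by 0.67 on the log2 scale. ADAM15 went from 125 to 286 CPM (adjusted p = 7.39e-13, edgeR). With the knockdown ADAM9 rose by 0.51 ± 0.05, and RHBDL2, the metalloprotease inhibitor TIMP3 and ADAM19 fell, by 1.37, 0.73 and 0.53 on the log2 scale. The median of the list was 0.14 at 7 days, beside 0.01 over all genes, and without the untreated library 5 the knockdown count was 2, with ADAM9 at 0.47 and ADAM19 at −0.49, short of the threshold. ADAM9 also fell short of it without the untreated library 4 or the knockdown library 4 or 5, at 0.49 each, and ADAM19 without the untreated library 3, at −0.50. RHBDL2 at 7 days was at 0.52, 0.70 and 0.64 and lost its call without the untreated library 3 and without libraries 2 and 4 of 7 days. Its means were 0.255, 0.294, 0.429 and 0.0960 CPM in untreated, 1.5 h, 7 days and knockdown cells. Only that of 7 days lay above the 0.296 CPM needed for the filter, so the calls of RHBDL2 are a description. ADAM17, the sheddase of many of these ligands, was not called in these comparisons.

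Of 20 negative regulators of ERBB signalling, 17 could be tested, of which 5 were called at 7 days, 2 at 1.5 h and 2 with the knockdown. These shares of 29.4%, 11.8% and 11.8% stood beside 31.1%, 3.66% and 12.7% of all genes tested, so that the list was near the share of all genes at 7 days and with the knockdown. SPRED3, an inhibitor of the RAS-ERK pathway, rose at 7 days by 1.03 ± 0.14 and with the knockdown by 0.85 ± 0.14. SOCS4 rose at 1.5 h by 0.65 ± 0.06 and at 7 days by 0.61 ± 0.06. SOCS3, an inhibitor of cytokine receptors, fell at 1.5 h by 0.58 and at 7 days by 1.37 on the log2 scale. LRIG3 and LRIG1, membrane proteins of a family that restrains ERBB receptors, fell at 7 days by 1.27 and 0.92, and the phosphatase gene PTPRJ fell with the knockdown by 0.52. The list's median at 7 days was 0.01, beside 0.01 over all genes, and without the untreated library 5 the knockdown count was 1, with PTPRJ at −0.41, and with lane as a factor it was 5, where 27.3% of all genes were called.

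Of 25 adaptors and transducers, all of which could be tested, 2 were called at 7 days and 0 in the other comparisons with untreated cells by edgeR. The 8% called at 7 days stood beside 31.1% of all genes tested, and the 0% at 1.5 h and with the knockdown beside 3.66% and 12.7%. At an unadjusted p under 0.05 there were 9 at 1.5 h and 12 with the knockdown, and DESeq2 called 0 in each. GAB2, a docking protein, rose at 7 days by 0.77 ± 0.13, from 24.1 to 40.9 CPM, and its relative GAB1 fell by 0.61. Without the untreated library 5, 2 were called at 7 days, both higher and without GAB1, then at −0.36, and leaving out any one of the untreated libraries 1 to 4 or the knockdown library 4 gave 1 called lower with the knockdown. With lane as a factor 9, 8 and 7 were called at 7 days, at 1.5 h and with the knockdown, in a fit that called 41.3%, 25.5% and 27.3% of all genes.

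Of 18 genes that ERK signalling is known to induce, 17 could be tested, of which 4 were called at 1.5 h, 3 at 7 days and 2 with the knockdown. These were 23.5%, 17.6% and 11.8% of the list, beside 3.66%, 31.1% and 12.7% of all genes tested. At 1.5 h IER3, an early response gene, rose by 1.37 ± 0.08, the transcription factor FOS by 0.61 ± 0.06 and the receptor EPHA2 by 0.55 ± 0.06, and PHLDA1 fell by 1.0. IER3, which is also known as an NF-κB target, went from 94.3 to 243 CPM. At 7 days the sphingosine kinase SPHK1 rose by 1.38 ± 0.12, cyclin D1 (CCND1) by 0.98 ± 0.05 and the urokinase receptor PLAUR by 0.60 ± 0.05. With the knockdown ETV1, an ETS family factor, rose by 0.75 ± 0.13 and IER3 fell by 0.51. The medians of the list were 0.13, 0.19 and −0.09 at 1.5 h, at 7 days and with the knockdown. Without the untreated library 5 the counts were 5, 5 and 1, with EPHA2 at 0.50 at 1.5 h and IER3 at −0.47 with the knockdown, both short of the threshold. The calls gained were larger, with FOSL1 at 1.19 and EGR1 at 0.62 at 1.5 h, beside 0.65 and 0.17 with all libraries, and FOSL1 at 0.91 and MYC at 0.62 at 7 days, beside 0.37 and 0.50. IER3 also fell short of it without the untreated library 1 or 4 or the knockdown library 2, at −0.43 to −0.50. DUSP7 went the other way with the knockdown, at −0.49 and not called with all libraries. It was called lower, at −0.50 to −0.56, without any one of the untreated libraries 1 to 4 or the knockdown library 1, 2 or 4. With lane as a factor the counts were 10, 10 and 8, of which 4, 4 and 1 were higher, beside 25.5%, 41.3% and 27.3% of all genes in that fit.

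**Figure D5:**
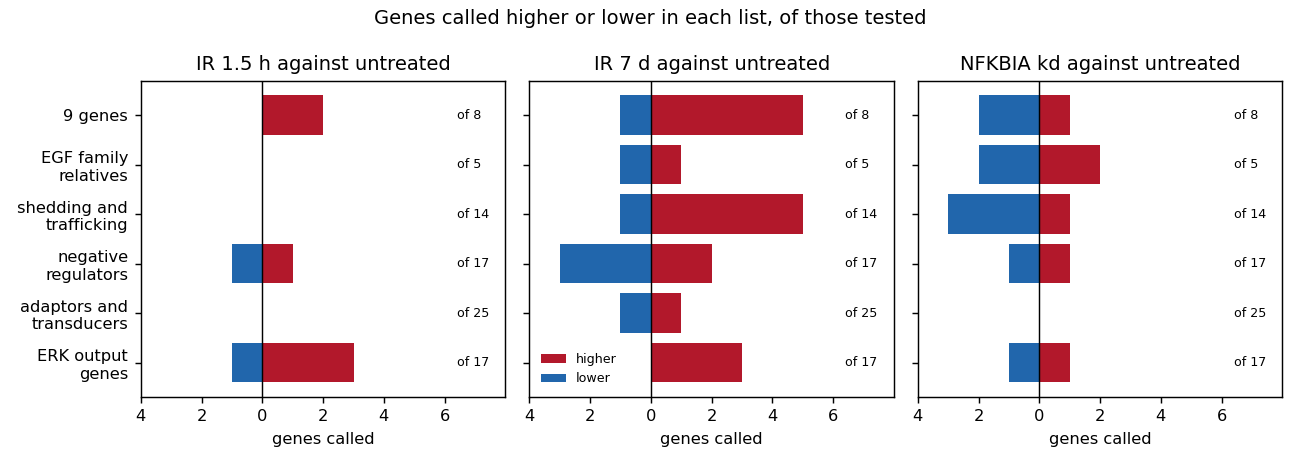
Number of genes called higher (right of 0) or lower (left of 0) against untreated cells for the 9 genes and 5 lists around them, with the number tested beside each bar. The bar of the 9 genes reaches 5 higher and 1 lower of 8 at 7 days, and the adaptors and transducers hold 1 higher and 1 lower of 25.

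Over the 20 libraries, each gene's log2 CPM was set beside that of all other genes tested, as a description of likeness in libraries that share their group structure, lanes and depth. HBEGF was most like JUN (r = 0.98), NKX2-5 (0.97) and ETS1 (0.96), which were at 0.61, 0.54 and 0.37 on the log2 scale at 1.5 h and at −0.30, −0.48 and −0.38 with the knockdown. EREG was most like HINT3 (0.97), GULP1 (0.97) and WDR35 (0.96), of which GULP1 was at 1.21 at 7 days and at 1.08 with the knockdown. NRG1 was most like DGKI and KCNC4 (each 0.99) and the keratin gene KRT34 (0.99), with log2 fold changes of 2.55, 1.03 and 4.18 at 7 days, and BTC most like CNTN5 (0.93), FLT1 (0.92) and SLAMF9 (0.92). TGFA was most like ATAD1 (0.95), SLC35A3 (0.95) and TRIM23 (0.94), EGFR like SIN3B, SMAD3 and LRP10 (each 0.98), ERBB2 like STK38, KIRREL3 and LMCD1 (each 0.96), and ERBB3 like UNK (0.96), FERMT2 (0.96) and IGF2BP1 (0.95). Among the 8 tested genes themselves the correlations ran from −0.93, between EREG and ERBB2, to 0.83, between BTC and NRG1. NRG1 and its receptor gene ERBB3 had r = −0.88, NRG1 and EGFR 0.73, and HBEGF and EGFR −0.25 (n = 20 libraries each).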

How the data were processed

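RNA of U2-OS cells was measured by RNA-seq in 20 libraries, 5 per group. The authors deposited whole-number read counts per gene, which sum to different totals, together with a gene length. Per the labels, hg19, bcl2fastq, Trimmomatic and STAR 2.4.2a were used. Libraries were stranded, per the study's methods. The counter, annotation and strand setting are not given in the sources used here. Files carry no positions, so positions come from GENCODE 29 (GRCh38) by Ensembl identifier and promoter sequences from RefSeq (GRCh38.p14). The deposited length was within 10% of the GENCODE 29 exon length for 85.6% of genes, and was 7657 against 11328 bases for NRG1.

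The analysis used edgeR 4.0.16 under R 4.3.3. Genes were kept by filterByExpr with a minimum count of 10, library sizes were scaled by TMM, and a quasi-likelihood model with 1 term per group was fitted to all libraries. P values of each of 6 comparisons were adjusted by Benjamini-Hochberg over 14992 genes. Standard errors were taken from the F statistic, and log2 CPM used a prior count of 2. In simulated counts the test recovered 189 of 200 changed genes with 1 false call (7 days against untreated, 14992 genes). In the data 31.1% of all genes were called in this comparison. Recovery at that share, with the lanes of these libraries or with a library that stands apart was not tested. The members and lists were chosen with earlier results of these data known. Named genes were the members, up to 3 called genes per list, comparison and direction with the largest change, the chromosome 4 neighbours, and the 3 genes most correlated with each member. Beyond these, NFKBIA, cell type markers, overlapping genes, EGF, ADAM17 and list genes whose call changed with a library left out were named. Alternatives were other scaling, filters, thresholds and corrections, DESeq2 1.42.0, lane or replicate number as a factor, only the groups compared, and leaving out each library. NRDC was matched under an older symbol, and PECAM1 is not used here.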

Additional observations from a re-analysis of the deposited data

How the results depend on the processing

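The 8 tested genes were recomputed under each alternative, except BTC and ERBB3 with at least 10 counts in every library, which they did not reach, and AREG was computed without a filter alone. The number of tested genes called stayed within 1.5 times the value given for 7 days against untreated cells and against 1.5 h. For 7 days against the knockdown it was 3 with at least 10 counts in every library and 3 with Bonferroni correction, the former with fewer genes tested. Of all genes tested, 22.5% and 16.7% were called under these settings. For 1.5 h against untreated the number of tested members called was 4 with lane as a factor, 4 without a threshold on the fold change and 0 with a log2 threshold of 1. Of all genes tested, 25.5%, 21.3% and 0.6% were called under these settings. For the knockdown against untreated 1, 5 and 1 members were called under the same settings, beside 27.3%, 40.5% and 3.5% of all genes. For the knockdown against 1.5 h the number was 1 with lane and 6 without a threshold, beside 7.91% and 41.7% of all genes. In that comparison EGFR was called with upper-quartile factors (0.53) and library size alone (0.52). Leaving out single libraries gave 2 to 3 calls at 1.5 h and 2 to 3 with the knockdown against untreated cells. The shares of all genes called were then 3.09% to 4.58% and 11.9% to 14.3%.

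Directions turned only for values near 0 or with lane, which shares few libraries across groups. NRG1 at 1.5 h was −0.0045 with upper-quartile factors, −0.0012 with at least 10 counts in every library, −0.0040 with DESeq2, −0.57 with lane, −0.59 within lane 3, and −0.054 to 0.17 without single libraries. ERBB3 at 1.5 h was −0.27 with lane and −0.28 within lane 3. With the knockdown ERBB3 was −0.0094 without a filter, −1.38 with lane and −0.071 to 0.11 without single libraries, BTC was −0.20 with lane and −0.064 to 0.15 without single libraries, and EGFR was −0.51 with lane. EREG at 7 days against the knockdown was −0.064 to 0.15 without single libraries. The cause was not tested.

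Replicate numbers did not pair the libraries: deviations of same-numbered libraries correlated at −0.25 to 0.12. With the replicate number as a block the counts of calls were 2, 6 and 3 against untreated cells, beside 3.31%, 30.9% and 12.3% of all genes. EREG at 1.5 h was then 0.44 with an adjusted p of 0.0545 (edgeR). Counts of AREG, BTC and ERBB3 were low, down to 0, 9 and 6 per library, and the cause was not tested.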
